A study of Homo sapiens with 23 samples.

Results

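The untreated state described here is the nascent transcription of 4 DMSO libraries, chosen by their labels as the zero-hour columns among the 23 libraries of a TRPS1 degradation series. The cells were T47D, an established luminal, estrogen receptor positive breast cancer line, carrying an inducible degron tag at the native TRPS1 gene. All 4 libraries came from 1 clone, dTAG-TRPS1 Clone 28, which makes only the tagged protein, and received 0.1% DMSO for 24 hours in RPMI medium with serum and insulin, so the cells were not deprived of hormone. DMSO addition and harvest were staggered over a single day to give the 4 replicates, and the spread between them may be partly technical. No other group was compared and no statistical test was run, since the description rests on 1 group of 4 samples.

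PRO-seq maps RNA polymerase by letting engaged enzymes add a labelled nucleotide to the nascent RNA in permeabilized cells and sequencing the 3′ ends. The count of a gene is therefore the number of polymerases found along it, which grows with its length as well as with how densely polymerases follow each other. Each count was scaled to a library total of 1000000 (CPM), and CPM was divided by the annotated span of the gene in kilobases to give a density in CPM per kb. This density is an average over the whole span and does not show where along a gene the polymerases stood. Luminal breast cells are known for estrogen, progesterone and prolactin receptors, for the lineage factors GATA3 and FOXA1, and for the keratin pair KRT8 and KRT18, while basal cells carry TP63 and the keratins KRT5 and KRT14.

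The 4 libraries held 7270090, 7143166, 13910436 and 9768427 gene counts, so that 1 count was worth 0.0719 to 0.14 CPM. Of 60605 gene identifiers, 21214 had at least 10 counts in all 4 libraries and 12507 had none in any. The counts were spread widely: 2202 genes held 50% of them, the 10 most counted genes held 4.54% and the 100 most counted 12.8%. Reads appeared to be counted by strand and once for each gene they fell in. Genes lying inside a larger gene of the same strand had a median of 0.945 times its density over 842 pairs, against 0.0582 times over 1175 pairs on opposite strands. Values of nested genes of 1 strand therefore share reads.

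The gene with the most polymerase was TRPS1, the repressive GATA-family factor that carries the tag. It had 8862, 8161, 10201 and 9506 CPM in replicates 1 to 4, or 0.918% ± 0.0873 (SD, n = 4) of all counts. TRPS1 spans 401 kb of the minus strand (hg38 chr8:115408496-115809673), and at 22.9 ± 2.18 CPM per kb it ranked 733 by density. It led in 3 of 4 libraries, and in replicate 1 the mitochondrial 16S ribosomal RNA gene MT-RNR2 stood higher with 9726 CPM. TRPS1 and MT-RNR2 overlapped across libraries, so their order was within the spread. The tag lies in this gene, and whether the tagged allele is counted like the original was not tested. The paper reports several genomic copies of TRPS1, some of them knocked out in each clone. How the number and editing of copies bear on this count was not tested either.

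Hormone receptor genes were also among the 12 most counted, at lower values. PRLR, the prolactin receptor, had 4190, 4152, 4475 and 4244 CPM over 182 kb, which put it at rank 5. PGR, the progesterone receptor, had 2542, 2427, 2891 and 2683 CPM over 100.2 kb, and ESR1, the estrogen receptor, had 2451, 2406, 2698 and 2567 CPM over 473 kb. PGR was above ESR1 in 4 of 4 libraries, although their ranges over libraries overlapped. Of the 12 most counted genes, PHACTR1, a regulator of protein phosphatase and actin, had 2482 ± 155 CPM over 574 kb, and MED13L, a subunit of the Mediator kinase module, 2438 ± 133 CPM over 319.8 kb. The means of PGR, ESR1, PHACTR1 and MED13L all lay within 2438 to 2636 CPM, and the ranges of these 4 genes overlapped.

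The other 6 of the 12 most counted genes were mitochondrial or held small RNA genes. MT-RNR2 had 8120 ± 1207 CPM, MT-RNR1, the 12S ribosomal RNA gene, 4910 ± 727 and MT-TL1, a leucine transfer RNA gene, 3308 ± 804. CCDC200 had 4768 ± 1054 CPM over 88.5 kb of chromosome 17, but 13 small RNA genes inside it, copies of the U2 spliceosomal RNA gene among them, held 3561 CPM. Likewise ENSG00000282885 on chromosome 14, with 3235 ± 573 CPM, encloses RN7SL2, a signal recognition particle RNA gene that itself had 1251 CPM. ENSG00000283360 on chromosome 1 holds 24 RefSeq transfer RNA genes and ranged from 977 to 4087 CPM. The U2, transfer RNA and signal recognition particle genes have near-identical copies, so which copy gave the reads is uncertain.

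**Figure D1:**
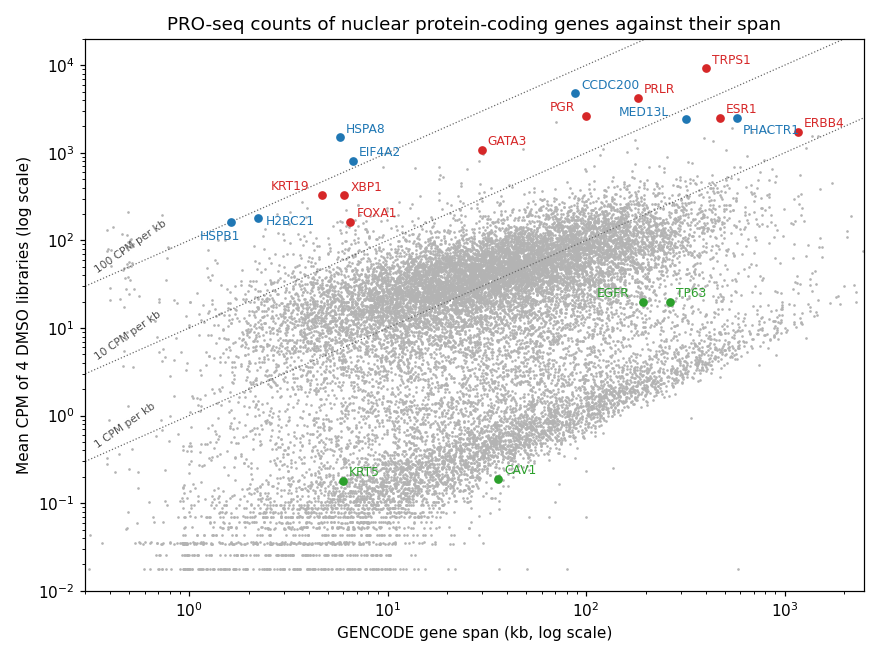
Mean CPM of the 4 DMSO libraries (vertical, log scale) against GENCODE gene span in kb (horizontal, log scale) for nuclear protein-coding genes, with luminal genes in red, other highly counted genes in blue and basal genes in green. Dotted lines mark equal densities of 1, 10 and 100 CPM per kb. TRPS1 stands highest with 9183 CPM, HSPA8 reaches 263 CPM per kb from 5.74 kb, and KRT5 and CAV1 lie in the lower cloud of genes near background.

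Density gave another order. Short RNA genes led: MT-TL1 had 44107 ± 10722 CPM per kb, MT-TV, a valine transfer RNA gene, 5539 ± 1873, and RN7SL1, a signal recognition particle RNA gene, 5375 ± 3359. MT-RNR2, MT-RNR1 and RN7SL2 followed with 5208 ± 774, 5147 ± 763 and 4169 ± 2545 CPM per kb. From MT-TV to RN7SL2 the values lay within their SDs of each other. The mitochondrial transfer RNA genes MT-TS2, MT-TL2, MT-TP and MT-TC held 1809 to 3502 CPM per kb. Of the 12 densest genes the remaining ones were nuclear, namely RNU2-2P, a U2 gene inside WDR74, with 2357 ± 1012 and ENSG00000286171, a lncRNA of 0.156 kb, with 1885 ± 610.

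Among protein-coding genes of at least 1 kb that lie in no other gene, 5 mitochondrial genes led, from MT-ND4 with 1451 ± 177 CPM per kb to MT-CO1 with 454 ± 46.6. Next was HSPA8, the constitutive HSP70 chaperone. It had 485, 348, 90.5 and 127 CPM per kb, and its mean lies far from every library. Replicates 1 and 2 stood above replicates 3 and 4 with no overlap. Small nucleolar RNA genes as a type held shares in the same order of libraries, with 0.717%, 0.441%, 0.234% and 0.308% of counts. The counts of any small RNA genes inside HSPA8 are not reported here, and their part in its spread was not tested. EIF4A2, an RNA helicase of translation initiation that hosts small nucleolar RNA genes, had 121.6 ± 23.6 CPM per kb, and HSPB1, the small heat shock protein HSP27, 100.3 ± 12.3. H2BC21, a histone H2B gene, stood at 80.1 ± 4.14, ENSG00000282988, which holds the histone gene H2AC7, at 74.9 ± 7.03, and the ribosomal protein genes RPS2 and RPS27 at 72.6 ± 24 and 72.5 ± 13.2.

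Without the length limit, histone genes made up most of the dense protein-coding genes. This group was singled out after its values were seen. Histone genes of the replication-dependent clusters are short, have no introns and are known to be transcribed in S phase. Of 28 nuclear protein-coding genes above 100 CPM per kb, 25 were histone genes, each spanning at most 0.797 kb, and the other 3 were HSPA8, EIF4A2 and HSPB1. H2AC20 led them with 427 ± 61.3 CPM per kb, and H4C2 and H1-2 had 341 ± 16.7 and 264 ± 9.05. H2AC20 had 196, 256, 191 and 201 CPM in the 4 libraries, with replicate 2 the highest, whereas H1-2 kept to 186 to 200.5 CPM. Many histone genes are close copies of one another, so the share of each is uncertain.

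Span changed what a count shows. The 323 nuclear protein-coding genes of 500 kb or more held 4.71% of the counts, with a median of 25.6 CPM but only 0.0257 CPM per kb. The 5581 genes of 5 to 20 kb had a lower median count of 9.33 CPM and a higher median density of 0.85 CPM per kb. Genes of 20 to 200 kb carried most polymerase, with 17.2%, 17.6% and 17.5% of counts in the classes of 20 to 50, 50 to 100 and 100 to 200 kb. ERBB4, a receptor tyrosine kinase gene of 1163 kb, held 1745 CPM at 1.5 ± 0.173 CPM per kb.

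By gene type, protein-coding genes took 83.3% ± 1.08 of the counts, from 33% of the genes and 69.2% of the summed span. Genes of lncRNA took 10.7% ± 0.254, from 27.8% of the genes and 28% of the span. Pseudogenes labelled as transcribed and unprocessed held 0.95% ± 0.0139. These 3 types kept nearly the same share in each library, with CVs of 1.3%, 2.38% and 1.46%.

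Small RNA types did not. Small nuclear RNA genes, which encode spliceosomal RNAs, held 1.12%, 0.729%, 0.674% and 0.742% of counts in replicates 1 to 4. Small nucleolar RNA genes, which guide modification of other RNAs, held 0.717%, 0.441%, 0.234% and 0.308%. Replicate 1 was highest for both and replicate 3 lowest. Genes of the type rRNA, which are 5S genes and relatives, held 0.228%, 0.0781%, 0.0246% and 0.0442%, a CV of 98.4%. The submitters removed reads that matched ribosomal DNA, so these shares are what passed that step. All nuclear small RNA types together, 7538 genes, held 2.71%, 2.02%, 1.25% and 1.42% of counts, and the shallowest libraries, replicates 1 and 2, had the highest shares. The part of library preparation or depth in this was not tested.

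**Figure D2:**
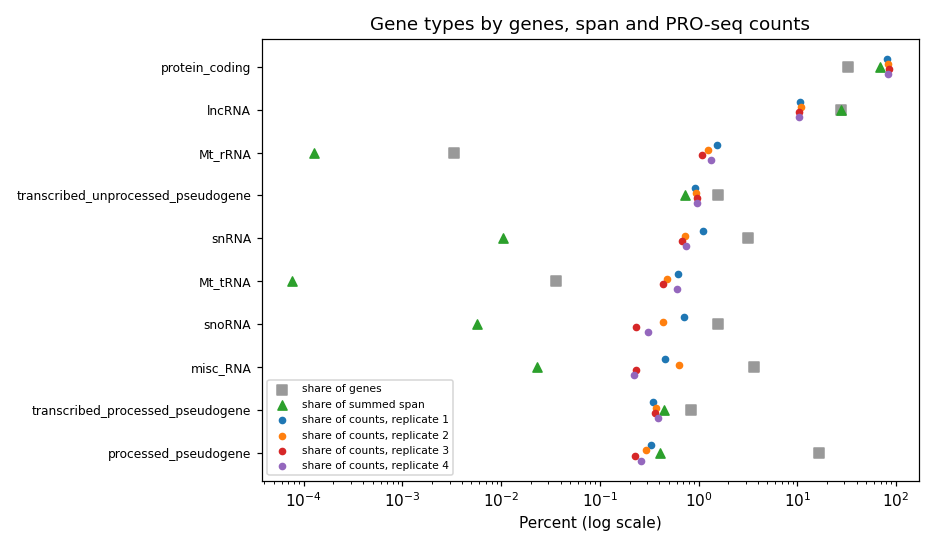
Share of genes (grey squares), share of summed gene span (green triangles) and share of counts in each of the 4 DMSO libraries (coloured circles), in percent on a log scale, for the 10 gene types with the most counts. Protein-coding genes hold 83.3% of counts from 69.2% of the span, the 4 circles lie close together for protein-coding and lncRNA genes, and they spread for snoRNA genes from 0.234% to 0.717%.

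To say which genes were on, a background was taken from 276 olfactory receptor genes that overlap no other gene, whose products serve smell in the nose. A gene was counted as on where its density exceeded the 95th percentile of these genes and it had at least 10 counts in every library, and as at background where it stayed at or below that percentile in every library. The percentile was 0.145, 0.149, 0.0764 and 0.0844 CPM per kb in replicates 1 to 4, which for a gene of 10 kb is 8.24 to 10.6 counts. The olfactory receptor genes had a median span of 2.61 kb and 175 to 208 of them had no count in a given library, so the limit rests on a few counts in short genes. Long genes with many counts can therefore fall under it, as EMCN did with a mean of 293 counts. By this measure 12288 of 19929 nuclear protein-coding genes (61.7%) were on, 6153 were at background and 1488 lay between. Of the olfactory receptor genes themselves, 5 were on. Genes on had a median of 1.19 CPM per kb, and 671 protein-coding genes had no count in any library.

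Densities crowded in an upper and a lower range. Between 1 and 3 CPM per kb there were 5192 nuclear protein-coding genes, between 0.03 and 0.1 only 1613, and between 0.01 and 0.03 again 3113. Of lncRNA genes, 3612 of 16780 (21.5%) were on, at a median of 1.28 CPM per kb.

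All 7 luminal markers given for the line were on. GATA3 was the steadiest: it had 36.1, 36.9, 36.8 and 36.7 CPM per kb, a CV of 1.01% from 7817 to 15255 counts. FOXA1, the pioneer factor that opens chromatin for the estrogen receptor, had 27.2, 24.2, 24.7 and 23.6, and KRT18 17.1, 17.5, 15.2 and 15.2 CPM per kb. For FOXA1 replicate 1 was the highest, and for KRT18 replicates 1 and 2 lay above replicates 3 and 4. PGR, TRPS1 and ESR1 were at 26.3 ± 2, 22.9 ± 2.18 and 5.35 ± 0.276 CPM per kb, with replicate 3 highest for each. KRT8 had 2.44 ± 0.259 CPM per kb over an annotated span of 52.8 kb, against 4.04 kb for its partner KRT18, so their densities rest on unlike spans. In counts KRT8 had 129 CPM and KRT18 65.6 CPM.

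In the wider luminal list 38 of 40 genes were on, beside 61.7% of all nuclear protein-coding genes. The median of the list was 4.14 CPM per kb, and that over all nuclear protein-coding genes 0.522. KRT19, a simple-epithelial keratin, was densest with 74.6, 74.2, 66.4 and 67.2 CPM per kb. XBP1, a factor of secretory cells, had 54.1 ± 2.39 and CLDN3, a tight junction protein, 28 ± 4.05, with its highest value in replicate 2. PRLR was at 23.5 ± 0.797 and TFAP2C, a lineage factor of the AP-2 family, at 21.8 ± 0.783. At the low end of the genes that were on stood GRHL1 and SLC39A6 with 0.73 ± 0.0279 and 0.783 ± 0.0454, and EPCAM, an epithelial adhesion molecule, with 0.819 ± 0.0333 CPM per kb. ANKRD30A was at background with 0.0156 ± 0.00291, and TFAP2B lay between with 0.117 ± 0.0179.

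Basal and myoepithelial genes were mostly low. Of 34, 10 were on, 3 between and 21 at background, with a median of 0.0522 CPM per kb. Over all nuclear protein-coding genes 61.7% were on. The defining keratins rested on 0 to 3 counts per library, with KRT5 at 0, 0.0705, 0 and 0.0516 CPM per kb and KRT14 at 0.0284 ± 0.00416. TP63, the basal lineage factor, was at background by the same limits but steady, with 0.0755, 0.0769, 0.0754 and 0.0701 CPM per kb over 265.9 kb. It lay above the median of the basal list and just under the limit of replicate 3. KRT6B, CAV1 and DSG3, the lowest of the list, had 0.00466, 0.00527 and 0.00868 CPM per kb, and CAV2, COL17A1 and SOX10 stood between 0.00956 and 0.012.

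The basal list nevertheless held members well above background. KRT15, a keratin of basal layers, had 13.1, 11.3, 11 and 11.8 CPM per kb. Its start lies 1.09 kb past the end of KRT19, which had 70.6 CPM per kb on the same strand. TAGLN, a smooth muscle actin binder, had 3.56 ± 0.304, and the gene before it on its strand, SIDT2, ends 1.93 kb upstream and had 3.93 CPM per kb. PRO-seq also detects polymerases that have passed the end of a gene, and the part of these neighbours was not tested. FOXC1, a forkhead factor, had 2.61 ± 0.29 CPM per kb, with its nearest upstream gene FOXCUT at 0.0195, and ITGB4, the integrin of hemidesmosomes, had 1.37 ± 0.0823. S100A2 and ITGA6 were lower, at 0.356 ± 0.061 and 0.353 ± 0.0115. At the 99th percentile of the olfactory receptor genes only KRT15, TAGLN, FOXC1 and ITGB4 remained on, 4 of 34, whereas the luminal count stayed at 38. With that limit 10293 of 19929 nuclear protein-coding genes were on.

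**Figure D3:**
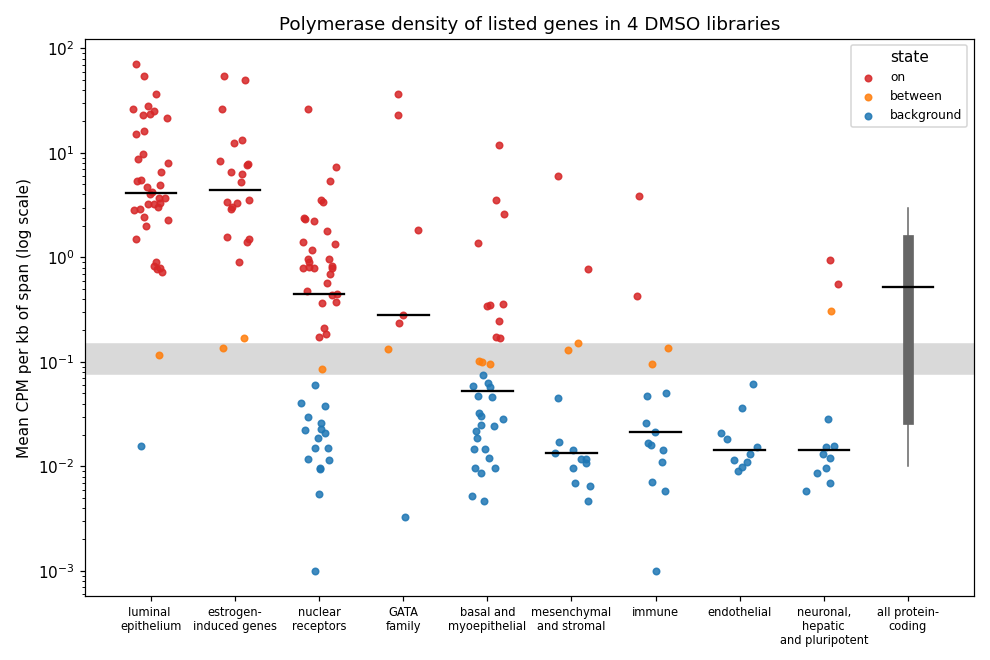
Mean density of each listed gene over the 4 DMSO libraries, in CPM per kb on a log scale, with 1 point per gene and a black line at each list's median. Red genes were on, orange between and blue at background, the grey band spans the 4 libraries' background percentiles, the bar at the right shows the 10th to 90th percentile range of nuclear protein-coding genes (thick part the middle 50%), and genes at 0 are drawn at 0.001. Luminal genes lie mostly above the band with a median of 4.14 CPM per kb, and basal genes mostly below it with 0.0522.

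Markers of other cell types were mostly at background, while 61.7% of all nuclear protein-coding genes were on. The cells were 1 clone of a cell line and not a mixed tissue, so these values do not measure shares of cell types. In bulk samples, a low level in all cells and a higher one in a few cannot be told apart. None of 10 endothelial genes was on, and EMCN, the highest of them, had 0.0619 ± 0.00711 CPM per kb. Of 15 mesenchymal and stromal genes 2 were on. These were SNAI1, a repressor of epithelial genes, with 5.45, 6.28, 5.77 and 6.62 CPM per kb, and the collagen gene COL1A1 with 0.773 ± 0.042. VIM, an intermediate filament of mesenchymal cells, lay between with 0.152 ± 0.052, and the stromal genes DCN, FAP and COL1A2 had 0.00471 to 0.00695 CPM per kb.

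Of 15 immune genes, 2 were on, again beside 61.7% of all nuclear protein-coding genes. CD68, a lysosomal protein of macrophages, had 3.86 ± 0.499 CPM per kb and starts 0.485 kb past the end of EIF4A1, which had 23.7 CPM per kb. The median of the 2 genes that were on was 2.14 CPM per kb, so the other, not reported here, was lower than CD68. PTPRC, the pan-leukocyte gene, was at background with 0.0262 ± 0.0029, and NKG7 had no count in any library, with 3 counts worth 0.216 to 0.42 CPM as the limit a count of 0 allows. Of 12 neuronal, hepatic and pluripotent genes, LIN28A, an RNA-binding protein of stem cells, had 0.955 ± 0.104 and SYP, a synaptic vesicle protein, 0.556 ± 0.111 CPM per kb. NANOG, POU5F1, ALB and TTR all stayed at background, at 0.00585 to 0.0121 CPM per kb.

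Nuclear receptors are transcription factors that bind hormones, vitamins or lipids, and 30 of 48 were on. This share, 62.5%, was close to the 61.7% of all nuclear protein-coding genes. PGR was densest with 26.3, followed by NR2F2, an orphan receptor, with 7.19, 7.61, 7.46 and 7.05 and ESR1 with 5.18, 5.09, 5.7 and 5.43 CPM per kb. NR2F2 was denser than ESR1 in all 4 libraries. The density of ESR1 was taken over its whole annotated span from the outermost start. How much of that span was transcribed was not tested. The retinoid receptors RARA and RXRB had 3.53 ± 0.139 and 3.42 ± 0.288, and the estrogen-related receptor ESRRA 2.39 ± 0.203, so RARA and RXRB did not differ beyond their spread. NR3C1, the glucocorticoid receptor, had 0.211 ± 0.00637 CPM per kb. The second estrogen receptor gene, ESR2, was just above the limit with 0.172 ± 0.0196 CPM per kb, which is below ESR1 in all 4 libraries. RARB, NR1H4, RXRG, RORB and PPARG were at background with 0.00546 to 0.0118, and NR0B1 had no count in any library. With the 99th percentile, 23 of 48 were on, beside 10293 of 19929 nuclear protein-coding genes, and ESR2 and NR3C1 were no longer among them.

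Of 22 genes known to be induced by estrogen, 20 were on, beside 61.7% of all nuclear protein-coding genes. The median over the list was 4.42 CPM per kb. STC2, a secreted glycoprotein, had 47.9, 51.5, 49.6 and 49 CPM per kb, just below XBP1. FKBP4, a chaperone of steroid receptors, had 13.4 ± 1.08, CCND1, cyclin D1, 12.5 ± 0.821 and the growth regulator MYC 8.35 ± 0.485. TFF1, a classical estrogen target, was among the lowest with 0.841, 1.32, 0.693 and 0.77 CPM per kb, replicate 2 standing above the rest. KRT13 and RET lay between, with 0.17 ± 0.0385 and 0.135 ± 0.0212. CELSR2, MYB and ADCY9 had 1.4 ± 0.0295, 1.49 ± 0.149 and 1.57 ± 0.468 CPM per kb. No hormone-free control was used here, so these are levels and not responses.

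In the GATA family, whose members share a DNA-binding zinc finger, GATA3 (36.6) and TRPS1 (22.9 CPM per kb) stood far above the rest. GATA3 was denser in all 4 libraries, although TRPS1 held 9183 CPM and GATA3 1091. GATA2 had 2.12, 1.98, 1.47 and 1.72 CPM per kb, GATA6 0.283 ± 0.0527 and GATA4 0.235 ± 0.0228. GATA5 lay between with 0.133 ± 0.0256, and GATA1, the erythroid member, had 1 count in 1 library.

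Other listed groups were nearly all on. All 22 cholesterol synthesis genes, all 16 heat shock genes and all 20 common reference genes were on, with medians of 2.05, 3.58 and 6.24 CPM per kb. Among all nuclear protein-coding genes the share on was 61.7%. Of 25 immediate-early genes, which growth signals induce within minutes, 22 were on at a median of 5.53 over the list. IER3 had 44.2 ± 4.6, JUNB 18.9 ± 2.56 and FOS 9.23 ± 1.27 CPM per kb, with their lowest values in replicate 1. CCN2, NR4A3 and FOSL1 were not on.

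Mitochondrial DNA is read from both strands as long transcripts that are cut into ribosomal, transfer and messenger RNAs. Its 37 genes held 3.25% (95% Wilson interval 3.24 to 3.27), 2.78% (2.77 to 2.8), 2.47% (2.46 to 2.48) and 3.07% (3.06 to 3.08) of counts in replicates 1 to 4. The intervals cover counting error only and do not overlap, so the libraries differed in this share by more than counting, with a mean of 2.89% ± 0.342. The 2 ribosomal RNA genes took 44.9% ± 1.67 of the mitochondrial counts, the 13 protein-coding genes 36.6% ± 2.19 and the 22 transfer RNA genes 18.4% ± 1.26. MT-TL1, which follows MT-RNR2 on the same strand, held 11.3% ± 1.64 alone.

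The 28 genes of the plus strand held 95.7% ± 0.33 of mitochondrial counts. On the minus strand MT-ND6, a complex I subunit, had 944 ± 123 CPM per kb, which is within the range of the protein-coding genes as a whole, 454 to 1457 with a median of 987. MT-ATP8 was the densest of these with 1457 ± 184, MT-ND3 had 1395 ± 104, and MT-CO2, MT-ATP6 and MT-ND2 lay at 603 to 663. Transfer RNA genes had a median of 1113 CPM per kb. MT-TK had no count in any library and MT-TD 57.8 ± 20.8 CPM per kb, the next lowest. Copies of mitochondrial DNA lie in the nuclear genome, and how reads matching both were placed is not given in the sources used here.

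Promoters were read because genes that were on and genes at background could be set side by side by their letters. RefSeq promoter windows (GRCh38.p14, 250 bases before to 50 after the start) were matched by symbol to 13314 of 19929 nuclear protein-coding genes, taking the start nearest to the annotated gene start and within 1000 bases of it. The 80 bases before the start of 5 genes that were on are shown first, with every CG dinucleotide in capitals, each written 5′ to 3′ on the gene's strand. For genes with several promoters, such as ESR1, the window is the one at the outermost annotated start. GATA3 (chr10:8045253-8045332), PRLR (chr5:35230488-35230567), ESR1 (chr6:151656592-151656671), CLDN3 (chr7:73770271-73770350) and H2BC21 (chr1:149886683-149886762) lie on the plus, minus, plus, minus and minus strands.
GATA3: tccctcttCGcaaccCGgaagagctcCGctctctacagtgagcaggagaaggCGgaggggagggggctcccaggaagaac
PRLR: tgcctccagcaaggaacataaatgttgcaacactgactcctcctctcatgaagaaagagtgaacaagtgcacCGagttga
ESR1: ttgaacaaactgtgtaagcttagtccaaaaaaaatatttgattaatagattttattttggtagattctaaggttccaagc
CLDN3: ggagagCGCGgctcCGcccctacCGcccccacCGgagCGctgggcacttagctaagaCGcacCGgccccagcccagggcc
H2BC21: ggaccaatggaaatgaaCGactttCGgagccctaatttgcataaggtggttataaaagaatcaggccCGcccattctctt

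For contrast, 4 genes at background follow: TP63 (chr3:189631309-189631388, plus), DSG3 (chr18:31447661-31447740, plus), COL17A1 (chr10:104085881-104085960, minus) and KDR (chr4:55125596-55125675, minus), an endothelial receptor.
TP63: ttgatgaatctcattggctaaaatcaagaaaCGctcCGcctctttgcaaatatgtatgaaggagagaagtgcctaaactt
DSG3: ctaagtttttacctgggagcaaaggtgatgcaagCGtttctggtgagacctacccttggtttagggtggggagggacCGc
COL17A1: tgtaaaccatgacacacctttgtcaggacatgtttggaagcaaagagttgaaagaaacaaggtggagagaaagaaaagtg
KDR: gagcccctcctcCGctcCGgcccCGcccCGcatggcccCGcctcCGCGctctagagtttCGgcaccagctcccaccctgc

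In the full 300 bases CLDN3 had 24 CG dinucleotides and GATA3 16, but PRLR had 9 and ESR1 4, fewer than KDR at background with 22. COL17A1 had 1. Across genes the medians were 2.33 CG per 100 bases in 3943 promoters at background and 9 in the lowest of 4 equal density classes of genes that were on. Among genes that were on the median hardly moved with density, with 8.67 in the highest class, above 2.28 CPM per kb. The letters TATAAA on the gene's strand stood in 12.9% of promoters at background, 2.18% of those in the class below the highest and 6.22% in the highest class, beside 6.99% of all. H2BC21 holds them 30 bases before its start. CCAAT or its complement ATTGG was in 34.7% of promoters at background, 43.5% in the highest class and 36.6% of all, but also in only 31% of those between and 32.2% in the lowest class of genes that were on. A match describes letters in the window and not a bound site.

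By chromosome, polymerase per kb of annotated gene span ran from 0.223 ± 0.00181 CPM on chromosome X to 0.886 ± 0.0292 on chromosome 17. Chromosomes 4, 13 and 18 followed X from below with 0.277 ± 0.011, 0.281 ± 0.0118 and 0.292 ± 0.00828, of which 4 and 13 were within their spread. Chromosomes 19, 14 and 20 had 0.759 ± 0.0229, 0.757 ± 0.0347 and 0.751 ± 0.011, within their spread of each other. On chromosome X 43.1% of protein-coding genes were on, against 70.2% on chromosome 19. TRPS1 alone held 18.8% of the counts of chromosome 8, and without it the density there was 0.397 in place of 0.487 CPM per kb. CCDC200 held 8.35% of the counts of chromosome 17 and ENSG00000282885 6.44% of those of chromosome 14. Both enclose small RNA genes, and the densities of these chromosomes without them are not reported here.

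Replicates differed by little for most genes. For 13745 genes with a mean of at least 100 counts, the median CV of CPM was 7.14%, and it fell from 10% at means of 100 to 200 counts to 5.4% at 1000 to 5000, where counting alone gives 2.7%. In the 82 genes with a mean of 5000 counts or more it was 7.29%, where counting gives 1.11%. The index of dispersion, the chi-square of the 4 counts against the library totals per degree of freedom, has a median of 0.789 when only counting error is present. Its median here was 1.82. The common biological coefficient of variation from edgeR was 11.9%. Replicates 3 and 4 were closest, with 44 genes over a 2-fold difference and a chi-square per degree of freedom of 2.37, and replicates 1 and 3 farthest apart, with 226 genes and 12.7. No pair agreed within sampling noise, so each library was counted once.

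Gene classes differed in spread. Of nuclear small RNA genes with enough counts, 144 of 210 had a CV over 30%, beside 80 of 11196 nuclear protein-coding genes, or 0.715%. The median CV was 53.2% for the former and 6.78% for the latter. Mitochondrial genes had 12.3%, immediate-early genes 9.58%, luminal genes 5.61% and nuclear receptors 6.35%. These CVs come from unlike depths, since the median counts were 2307, 324.75, 1410.5 and 418.75 in the same order. By the median index of dispersion, which is relative to counting error, the order differed. Mitochondrial genes had 33.9, luminal genes 4.96, immediate-early genes 2.34 and nuclear receptors 1.65, beside 1.82 over all genes. None of the 37 luminal or 31 receptor genes with enough counts exceeded 30%. Of the 100 genes with the highest index of dispersion 42 were nuclear small RNA genes, 33 nuclear protein-coding and 18 lncRNA genes. Replicate 1 was the highest library in 81 of these 100 and replicate 3 the lowest in 85, whereas over all 13745 genes replicate 1 was the highest in 11.7%.

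**Figure D4:**
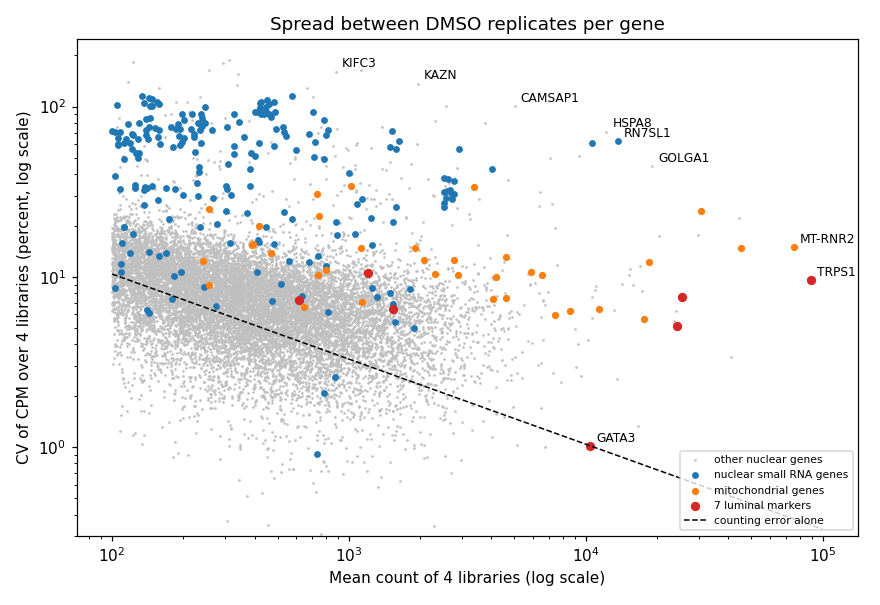
CV of CPM over the 4 DMSO libraries in percent against the mean count, both on log scales, for genes with a mean of at least 100 counts. Nuclear small RNA genes are blue, mitochondrial genes orange, the 7 luminal markers red and other genes grey, and the dashed line is the CV that counting alone gives. GATA3 lies on that line with 1.01%, TRPS1 at 9.51% stands above it, and most small RNA genes exceed 30%.

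The 10 genes with the highest index of dispersion fell into patterns by library. For the same proportional spread this index grows with the count. Genes with fewer counts could therefore vary more in proportion and not be among them, as GBA3 did with 3.44, 165, 2.08 and 2.05 CPM. In ENSG00000283360, the gene that holds transfer RNA genes, replicates 1 and 2 had 3684 and 4087 CPM and replicates 3 and 4 had 977 and 1143. HSPA8 had 2787, 1996, 520 and 729 CPM, CAMSAP1, a microtubule binding protein, 1537, 726, 106 and 224, and TMEM132D, a membrane protein, 485, 754, 48.2 and 67 CPM. In each of these replicates 1 and 2 stood above replicates 3 and 4 with no overlap. RN7SL1 with 1673, 3003, 938 and 815 CPM, RN7SL2, and the Golgi protein gene GOLGA1 with 3076, 3086, 1133 and 1647 CPM shared that order.

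Other genes were high in 1 library only. KIFC3, a kinesin, had 389, 23.5, 21.8 and 22.4 CPM, with replicate 1 apart. KAZN, a gene of 1225 kb, had 712, 52.5, 127 and 48.5 CPM, again with replicate 1 apart. The lncRNA gene ENSG00000247970 had 34.5, 518, 21.6 and 26.3 CPM, with replicate 2 apart. In all, 31 of the 13745 genes had a highest library at least 3 times the next. It was replicate 1 in 24 of them, replicate 2 in 6 and replicate 4 in 1. Many of the 24 high in replicate 1 were 5S RNA genes or their pseudogenes, such as RNA5S13 with 199, 48.9, 17.3 and 27.6 CPM. These are related copies, so they do not count as separate cases. The counts are totals over whole genes, so where along KIFC3 or KAZN the reads of replicate 1 fell cannot be read from them.

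**Figure D5:**
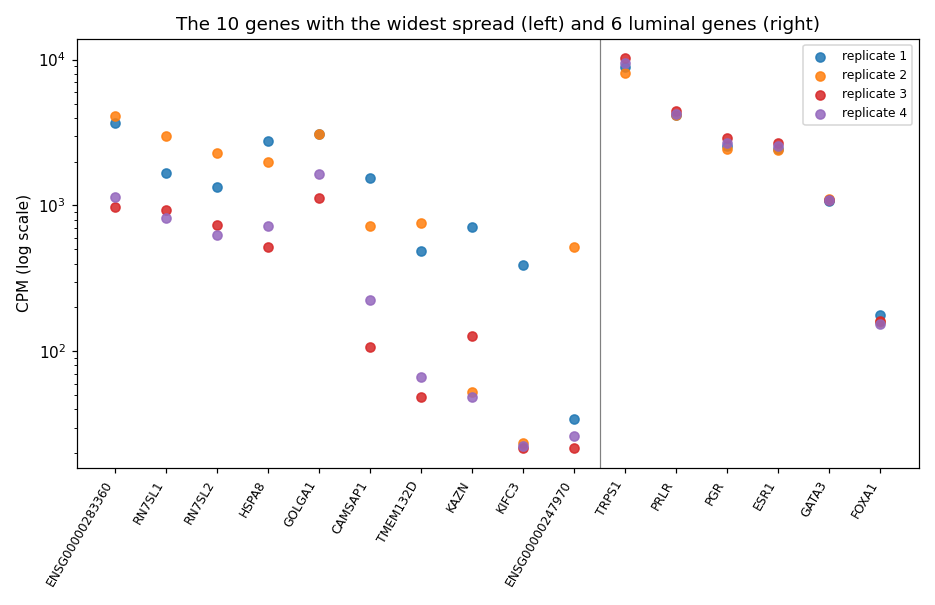
CPM in each of the 4 DMSO libraries (log scale) for the 10 genes with the highest index of dispersion, left of the line, and for 6 luminal genes, right of it. HSPA8 runs from 520 to 2787 CPM and KIFC3 from 21.8 to 389, while the 4 circles of PRLR, ESR1 and GATA3 nearly coincide.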

How the data were processed

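PRO-seq was analysed in 4 DMSO libraries of T47D dTAG-TRPS1 Clone 28. The deposited table holds counts per gene, which the authors made by trimming with cutadapt 1.8.1, removing duplicates by molecular identifiers, discarding reads that matched ribosomal DNA, aligning to hg38 with Bowtie2 2.4.4, sorting with SAMtools 1.9 and counting with bedtools. Versions are from the submitters' processing notes. The annotation and the strand setting are not given in the sources used here. What was combined in the columns named as combined is not stated either.

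From the deposited counts, CPM (over all gene counts), density per kb of GENCODE release 44 span (60463 of 60605 identifiers matched; 142 did not), background states, CV and index of dispersion were computed with Python 3.11.15, pandas 2.3.3, numpy 2.4.6 and scipy 1.17.1, and the biological coefficient of variation with edgeR 4.0.16 in R 4.3.3. Errors are SDs over 4 libraries of 7143166 to 13910436 counts. The dispersion estimates were tested on simulated data. No comparison between groups was made and no replicate block applies to 1 group.

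The members and gene lists were chosen with earlier results of these data known. Named were the 12 genes highest by CPM, by density, and by density among protein-coding genes of at least 1 kb in no other gene; the 7 markers; up to 12 of the cell type, receptor, estrogen and GATA lists, highest and lowest; mitochondrial genes; and the 10 with the highest index of dispersion. Genes from the other lists, H2AC20, H4C2, H1-2 and further genes named outside this rule were chosen after their values were seen. Alternatives were other scaling factors, count minimums, percentiles and windows, genes without overlap, and leaving out each replicate. Values of some list members are not reported here, although the counts over their lists include them.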

Additional observations from a re-analysis of the deposited data

Results flagged for a closer look

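In 9 of 117 named genes with at least 10 counts per library, 1 library lay far from the other 3 by the ratio of its gap to the whole range. KAZN, KIFC3 and ENSG00000247970 had been named for their wide spread, so their gaps restate that choice. Of the 107 genes not named for spread, 6 had such a gap, where chance flags about 1 group in 20. Replicate 1 was apart in KAZN (712 CPM, others 48.5 to 127) and KIFC3 (389 CPM, others 21.8 to 23.5). Replicate 2 was apart in ENSG00000247970 (518 CPM, others 21.6 to 34.5), and by a small amount in CCND1 (183 CPM, others 161 to 162) and TAGLN (32.5 CPM, others 27.3 to 27.7). Replicate 3 was low in MT-CO1 (592 CPM, others 734 to 740), MT-ATP8 (245 CPM, others 320.1 to 321) and PPARG (1.22 CPM, others 1.84 to 1.96), and replicate 4 in MYC (57.3 CPM, others 64 to 65).

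Outside the genes with an annotated span, the 142 identifiers without a match held 0.265% of counts on average, with 125 of them above 0, and they entered the library totals only.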

How the results depend on the processing

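Over 105 alternative values, 91 stayed within a limit set for their kind. Shares, chromosome densities and the CPM of TRPS1 had the SD between replicates as the limit, and counts of genes 1.5 times. For the index of dispersion and the common coefficient of variation it was the SD of the values that each leave out 1 replicate. For promoter letters it was the interquartile range over promoters, and for the rank of TRPS1 an unchanged first place. The 12 most counted genes shared 11 to 12 members and the 12 densest shared 11 to 12 when 1 replicate was left out, the dense protein-coding genes 10 to 12, and TRPS1 kept the first rank throughout. Without genes that overlap another on either strand, 7 of the 12 dense protein-coding genes remained. Without genes inside another gene, the protein-coding share was 85.6% in place of 83.3% and the density of chromosome 17 was 0.816 in place of 0.886 CPM per kb. Without mitochondrial genes the protein-coding and lncRNA shares were 84.9% and 11%. Without the mitochondrial ribosomal RNA genes the mitochondrial share was 1.61% in place of 2.89%. At the 99th percentile 4 basal genes were on in place of 10, beside 10293 nuclear protein-coding genes in place of 12288. The median index of dispersion was 1.42 with a minimum mean of 10 counts and 1.07 with none, and 1.48 to 2.03 when 1 replicate was left out, while the common coefficient of variation then ran from 9.45%, without replicate 1, to 13.2%. Without TRPS1 chromosome 8 had 0.397 CPM per kb. The cause of these shifts was not tested beyond the genes or libraries each leaves out. At this depth, genes of a few kb near background rest on single counts, and their state was not resolved. No paired analysis was possible because there is 1 group.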
